A study of Mus musculus with 18 samples.

Results

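Wild type cells sorted for syndecan-3 from tibialis anterior muscle 48 h after barium chloride injury were compared with cells sorted the same way from uninjured muscle, over all 45101 probe sets of an Affymetrix mouse expression array. The comparison held 3 arrays at 48 h and 2 uninjured arrays, 5 of the 18 arrays in the series. Both groups came from female wild type C57Bl/6 x DBA2 mice, with an age range of 3 to 6 months in the labels and an age of 3 months for sorted cells in the methods. Muscle was injected with 1.2% barium chloride 48 h before harvest or left untreated, minced and digested with collagenase. RNA of 5000 cell equivalents went through repeated T7 amplification onto each array. The remaining groups were wild type cells at 12 h and cells of Sdc4-/- mice on a C57Bl/6 background, at 0 h, 12 h and 48 h. The third wild type uninjured array was left out of the fit, as the study left out 1 uninjured array that grouped with injured cells. It was taken to be replicate 3, and its values are given as a check. The labels do not say whether replicates came from separate mice, so p-values measure only a spread between arrays. That spread, and the SE given after each change, was estimated over the 17 fitted arrays of all 6 groups and not over the 5 compared arrays alone.

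Satellite cells are the muscle stem cells that lie between the fibre and its basement membrane. They are marked by Pax7, leave quiescence after injury, and divide as myoblasts that express Myod1 before they fuse. Injured muscle also fills with neutrophils and then with macrophages, which clear dead fibres and release cytokines, while endothelial cells, pericytes and fibro-adipogenic cells rebuild vessels and matrix. Syndecan-3 and syndecan-4 are heparan sulfate proteoglycans of the cell surface, and antibody to syndecan-3 was the gate of the sort.

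Levels are log2 GCRMA values, in which 1 unit is a doubling and values of 2 to 3 are read as background. No detection calls were used, and 10629 of 18194 genes had both group means under 4, so values of 3 to 4 may be background too. The 48 h arrays correlated with their own group at r = 0.887 to 0.907 over all probe sets, and the pair of uninjured arrays at r = 0.954. Uninjured replicate 3 correlated at 0.760 with the other uninjured arrays and at 0.824 with the 48 h arrays. With the wild type 12 h arrays it correlated at 0.704, against 0.593 and 0.603 for the fitted uninjured arrays. The fitted uninjured arrays had 7213 and 7620 probe sets above a level of 5, against 5123 to 5564 at 48 h and 4512 on uninjured replicate 3. The 18 hybridization controls, added at fixed amounts, averaged 7.86 and 8.94 on the uninjured arrays and 11.68 to 12.50 at 48 h. The 5' probe set of Actb was at 5.62 and 5.78 uninjured and at 7.89 to 8.42 at 48 h, while its 3' probe set was at 11.57 and 12.18 against 12.13 to 12.65. These measures moved with the groups, and their part in each gene's change was not tested beyond the fit with the control level as a covariate.

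The sorted cells carried the satellite cell label, which was checked against markers. Pax7 was at 5.15 and 4.59 on the uninjured arrays, at 2.45, 2.46 and 2.46 at 48 h, and at 2.47 on uninjured replicate 3. It was above background only on the fitted uninjured arrays and fell by 2.41 ± 0.15 (SE, adjusted p = 2.84e-06). Myf5, an early myogenic factor, fell by 1.38 ± 0.19 (adjusted p = 7.71e-04) from 5.08 and 4.35 to between 3.14 and 3.57. Myod1, the factor of committed myoblasts, was at 2.29 and 2.65 uninjured and 2.33 to 2.35 at 48 h, all at background. Myog, a factor of differentiation, was between 2.50 and 2.73 on the 5 arrays, and Myf6 between 2.50 and 2.61. Myh3, the embryonic myosin of new fibres, was between 3.17 and 3.87. The last 4 did not pass the test.

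The gating antigen and its relative behaved differently. Sdc3 itself was at 5.05 and 5.94 uninjured and at 6.09, 5.56 and 6.11 at 48 h, with overlapping groups and an adjusted p of 0.570. Sdc4 was at 4.08 and 5.20 uninjured and at 6.88, 8.004 and 8.11 at 48 h. It was higher on every 48 h array and rose by 3.03 ± 0.76 (adjusted p = 0.0226). The adjusted p was 0.189 without uninjured replicate 1, 0.0647 without 48 h replicate 2 and 0.0645 without 48 h replicate 3. With only the groups compared it was 0.0594. Of 25 satellite cell markers 2 were called higher and 8 lower, and none and 5 without uninjured replicate 1. Besides Sdc4, Cdh15, the M-cadherin of the satellite cell membrane, rose by 1.35 ± 0.40 (adjusted p = 0.0455), a call lost without either uninjured array (0.196 and 0.153) or 48 h replicates 1 or 2 (0.0765 and 0.0617). Cd34, a surface sialomucin of quiescent satellite cells and of endothelium, fell by 3.50 ± 0.46, from 5.97 and 5.99 to 2.48 to 2.49. Chodl, a transmembrane lectin, fell by 1.90 ± 0.20. Vcam1 and Itga7, also used in sorting, did not pass (adjusted p = 0.974 and 0.160). When uninjured replicate 3 was fitted too, 1 of the 25 was called higher and none lower, at an adjusted p of 0.148 for Pax7, 0.195 for Myf5 and 0.182 for Cd34.

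Markers of other cell types were read on the same arrays. Of 26 monocyte and macrophage markers, 21 to 22 were above a level of 5 on each 48 h array, against 9 and 20 on the uninjured arrays. Csf1r, the macrophage growth factor receptor, was at 12.91, 12.43 and 12.74 at 48 h and at 10.02 and 12.86 uninjured. Lyz2, lysozyme of myeloid cells, was at 12.13 to 12.72 at 48 h and at 7.56 and 10.88 uninjured. The summed linear level of the macrophage list was 80755 to 83670 at 48 h, 6928 and 38936 uninjured, and 83371 on uninjured replicate 3. In contrast, the endothelial list summed to 776 to 1366 at 48 h and 6623 and 22058 uninjured. The pericyte list summed to 397 to 1107 against 7372 and 21244, and the fibroblast list to 1505 to 1655 against 7947 and 10294. Of 17 lymphocyte markers none was called by limma and 4 were higher at an unadjusted p under 0.05, with 2 to 3 above a level of 5 on each 48 h array and 0 and 1 uninjured. Ccl5, a chemokine of T cells and also of macrophages, was at 6.29 to 8.05 at 48 h and at 4.24 and 7.23 uninjured, and Il7r, an interleukin receptor chain, at 5.18 to 7.05 against 3.75 and 4.95. The defining markers Cd3d, Cd3e, Cd79a and Nkg7 lay between 2.36 and 3.73 on all 5 arrays, and the erythroid markers had no member above 5 on any of them. At 48 h the defining markers of macrophages were high and Pax7 and Myod1 were at background. The comparison is therefore named by its rule, as sorted cells at 48 h against uninjured. In bulk samples fewer cells of a type and less RNA per cell cannot be told apart.

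**Figure D1:**
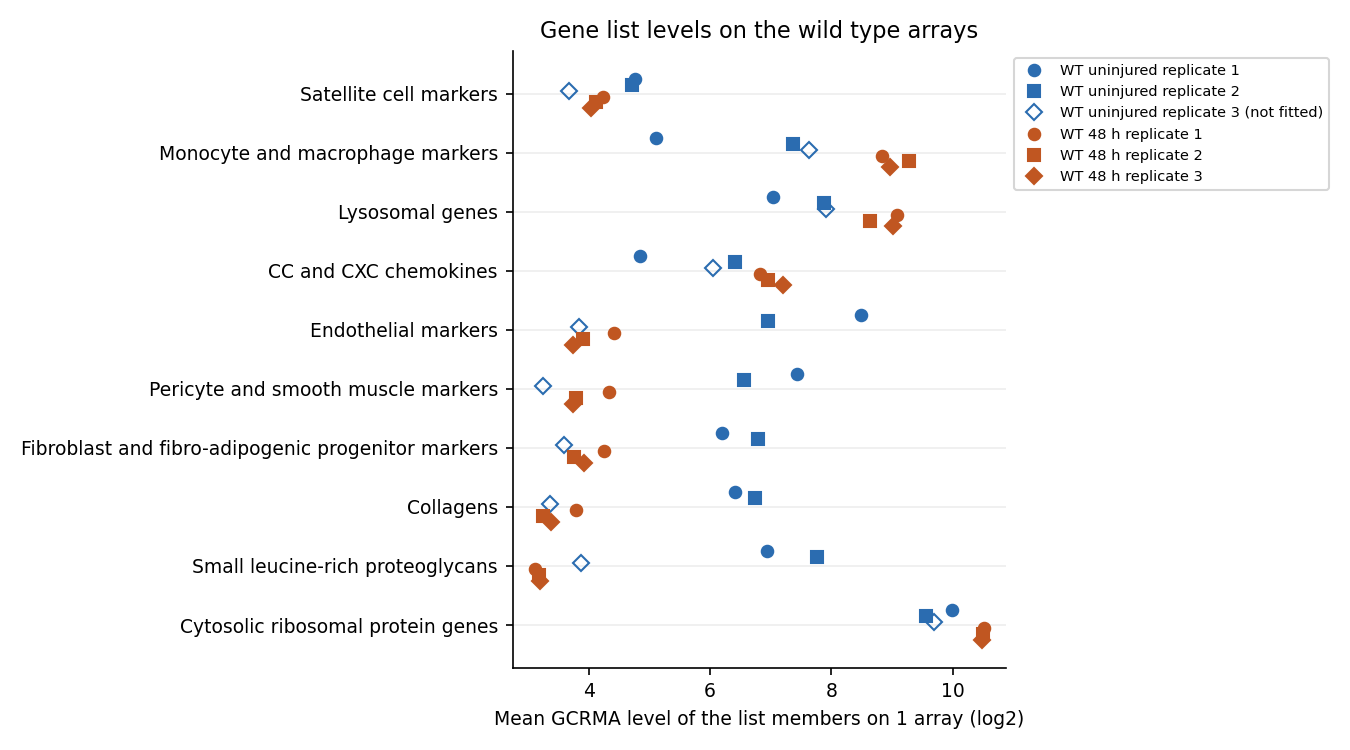
Each point is the mean log2 level of the measured members of a gene list on 1 wild type array, blue for uninjured and orange for 48 h, and the open diamond is the uninjured replicate that was not fitted. The endothelial, pericyte, fibroblast, collagen and proteoglycan lists were high only on uninjured replicates 1 and 2, and the macrophage list was lowest on uninjured replicate 1, at 5.11.

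Of the 45101 probe sets, 2415 (5.35%) were called higher at 48 h and 3209 (7.12%) lower by limma at an adjusted p under 0.05. With each gene read by its brightest probe set, 996 of 18194 genes (5.47%) were called higher and 1709 (9.39%) lower, and the median change over all genes was 0.10. The falls were the larger changes. The median called fall was -2.01 and the median called rise 0.70, and 762 probe sets fell at least 8-fold where 130 rose as far. Among the called rises 1924 (79.7%) had their 48 h mean below 5, close to background. Among the called falls 1328 (41.4%) had their uninjured mean below 5. Groups that did not overlap were common. All 48 h arrays lay above both uninjured arrays for 8035 genes (44.2%), and below them for 3793 (20.8%). The threshold of the study, a change of at least 2-fold and a p up to 0.01, read here as limma's unadjusted p, was met by 925 probe sets that were higher and 2975 that were lower. With uninjured replicate 3 in the fit, 251 probe sets were called higher and 168 lower. Without uninjured replicate 1 the counts were 731 and 1917. Rises were 42.9% of all called probe sets, against 85.3% of 20138 after a shift of each array to a common 75th percentile and 31.9% of 3433 after a further quantile normalization. The shares over all genes, 5.47% higher and 9.39% lower, are the background for every list count below and are mostly not repeated there. Among genes with a mean of at least 4 they were 5.18% and 14.2%. Some lists lay near the shares over all genes, such as the integrins, with 4.17% higher and 8.33% lower. Many lists are also given with the count under other choices of arrays. Of the 124 named genes that were called, 92 lost their call with the hybridization-control level in the model, an alternative chosen after seeing the data, and 44 when only the groups compared were fitted. The control level did not overlap between the 2 groups, so this model cannot fully separate it from the comparison. Some calls were lost at a larger change, as for Arg1 (8.83 to 9.29, adjusted p = 0.118), Cxcl3 (7.64 to 10.99, 0.133) and Aqp1 (-7.54 to -9.58, 0.152). Others were lost at a smaller one, with Saa3 at 8.47 (0.194), Dcn at -1.74 (0.878), Mki67 at 1.82 (0.695) and Dnajb11 at 0.24 (0.934). Fmod, Pax7, Tgfbr3 and Msr1 kept their calls.

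**Figure D2:**
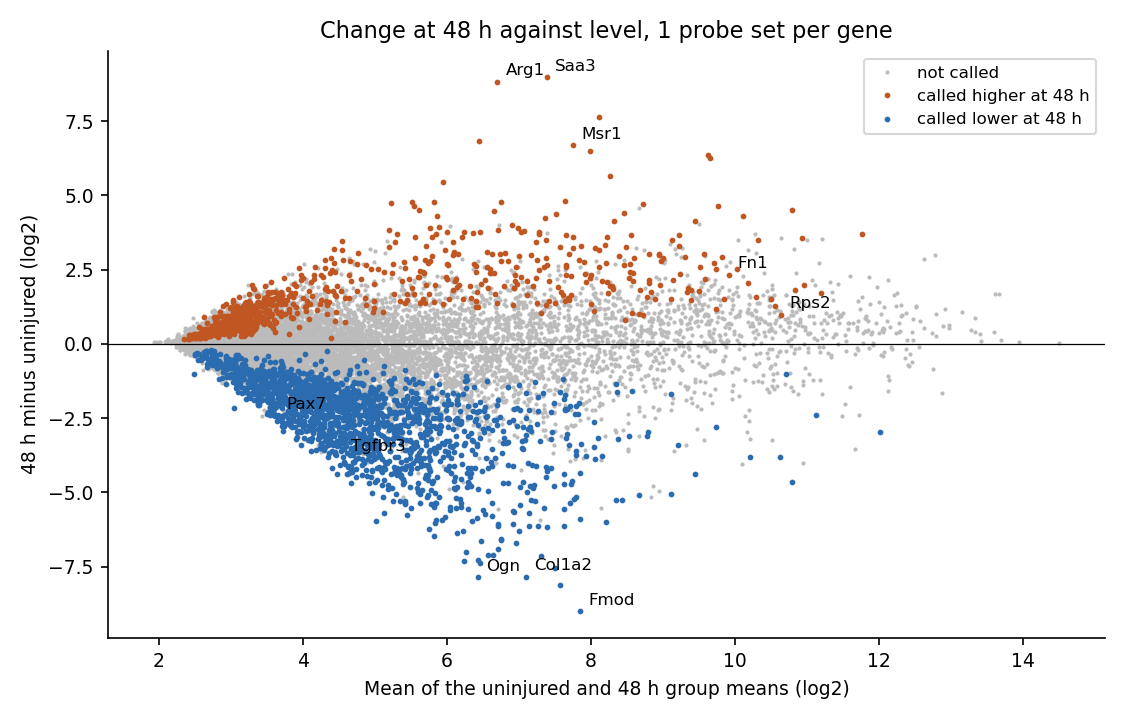
Each point is a gene, with the mean of its group means on the horizontal axis and its change at 48 h on the vertical axis, both in log2, and colour marks genes called by limma. Saa3, at 8.97, and Fmod, at -9.003, mark the ends of the vertical axis.

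The 15 largest rises among called genes included many that inflammatory macrophages are known to express. Saa3, an acute-phase serum amyloid that macrophages and adipocytes make, was at 3.03 and 2.77 uninjured and at 8.85, 13.72 and 13.06 at 48 h. It rose by 8.97 ± 1.41 (adjusted p = 0.00165). Arg1, the arginase of alternatively activated macrophages, went from 2.28 and 2.28 to 10.51, 11.59 and 11.25, a rise of 8.83 ± 1.33 (adjusted p = 0.00124). Both were at background on the fitted uninjured arrays and at 7.60 and 3.71 on uninjured replicate 3. The neutrophil-attracting chemokines Cxcl3 and Ppbp rose by 7.64 ± 1.73 and 6.83 ± 1.01, to between 11.68 and 12.25 and between 8.86 and 10.45. Msr1, a scavenger receptor, was at 3.01 and 5.79 uninjured and at 10.77, 11.52 and 10.99 at 48 h (rise 6.69 ± 0.70, adjusted p = 1.01e-04). Chil3, a chitinase-like secreted protein of macrophages, rose by 6.51 ± 1.18 to between 11.01 and 11.67. Clec4d and Clec4e are C-type lectins that sense microbial and damaged-cell lipids. They rose by 6.25 ± 1.77 and 5.65 ± 1.33, reaching 13.16 and 11.33.

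Il1a, an alarm cytokine, was at 2.24 and 4.21 uninjured and at 7.37, 9.36 and 9.31 at 48 h (rise 5.46 ± 1.23, adjusted p = 0.0128). C3ar1 and Fcgr1, the receptors for complement C3a and for monomeric IgG, rose by 4.81 ± 0.94 and 4.79 ± 0.66. Cd68, a macrophage lysosomal glycoprotein, rose by 4.79 ± 0.77 from 2.50 and 6.21 to 9.22, 9.43 and 8.79. Ccl12, a monocyte chemoattractant, and Slc37a2, a sugar phosphate transporter of macrophages, rose by 4.76 ± 0.78 and 4.77 ± 0.79. Ms4a6d, a membrane-spanning protein of myeloid cells, rose by 6.37 ± 1.25. It was at 3.73 and 9.17 on the uninjured arrays, the widest gap between them in this group. The genes were chosen for groups that did not overlap, and uninjured replicate 3, which the choice did not use, was also below every 48 h array for all 15. In the fit of all 18 arrays 12 of the 15 kept their call, and the adjusted p was 0.0605 for Cxcl3, 0.0949 for Ms4a6d and 0.0893 for Clec4d. With only the groups compared in the fit, the adjusted p was 0.105 for Ms4a6d, 0.1 for C3ar1 and 0.0928 for Cd68. It was 0.0601 for Saa3 and 0.054 for Il1a, and the other rises kept their calls. Without uninjured replicate 1, on which the macrophage list was lowest, 9 of 15 were called, and the adjusted p was 0.0604 for C3ar1, 0.133 for Il1a, 0.151 for Cxcl3, 0.167 for Clec4e, 0.0537 for Ms4a6d and 0.216 for Clec4d. Clec4d was also lost when any other array of the contrast was left out, at an adjusted p of 0.0966 without uninjured replicate 2 and 0.059 to 0.0899 without a 48 h replicate.

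**Figure D3:**
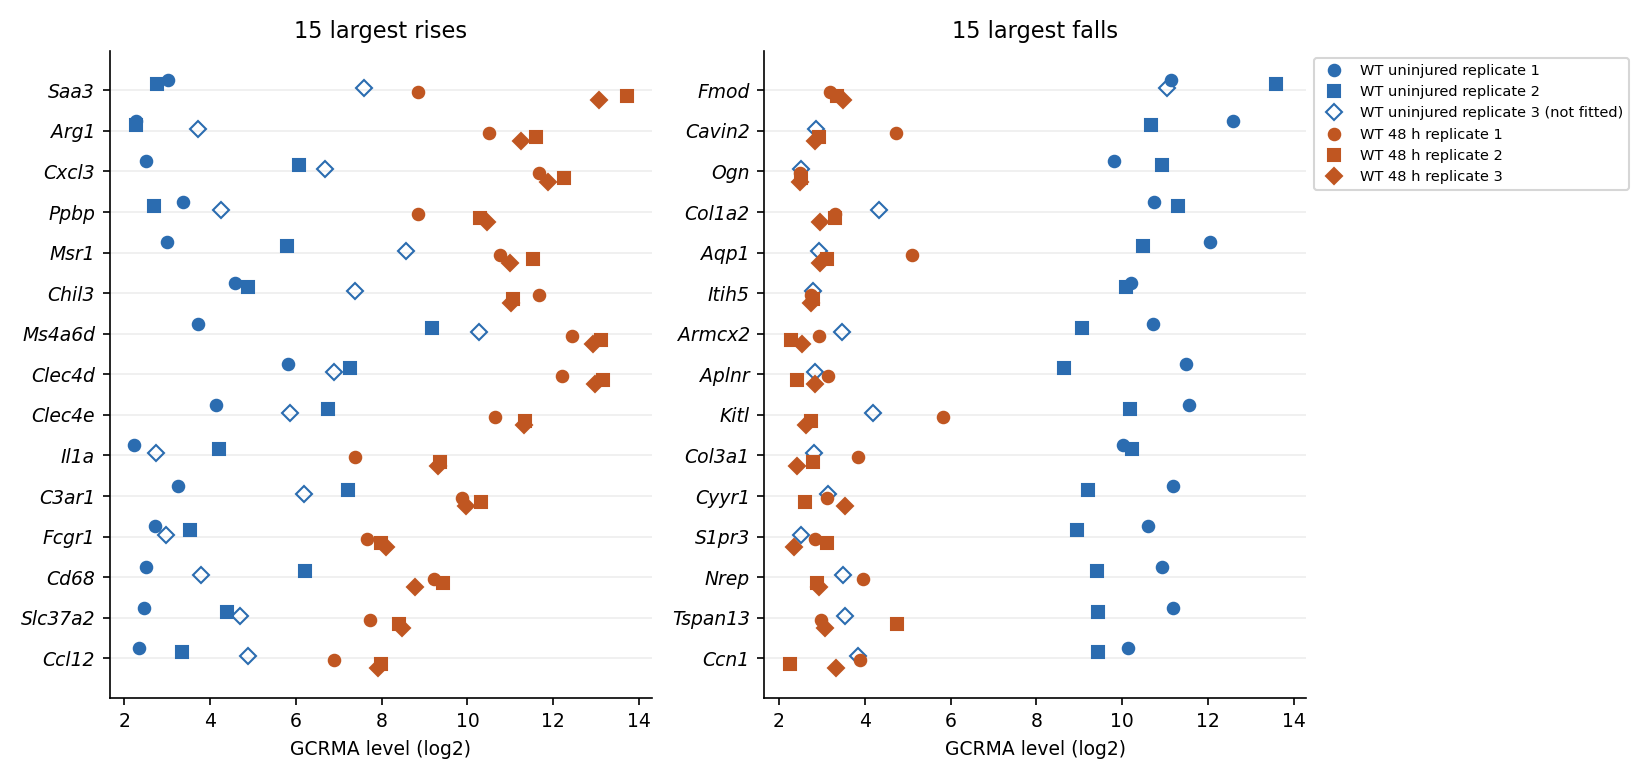
Levels in log2 of the 15 largest rises (left) and 15 largest falls (right) on each wild type array, blue for uninjured and orange for 48 h, with the uninjured replicate that was not fitted as an open diamond. The open diamond lay below every 48 h array for the rises, and between 2.52 and 4.33 for 14 of the falls, with Fmod, at 11.03, the exception.

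Promoters of these genes, 250 bases before to 50 after the start site, were read from RefSeq (GRCm38.p6), which held windows for 12 of the 15 rises and 13 of the 15 falls. Both strands were searched for 6 motifs, chosen with the results known. The AP-1 motif TGANTCA was in windows of 5 rises (C3ar1, Cd68, Il1a, Ppbp and Slc37a2) and of 0 falls, and in 8.97% of all 27025 genes with a window. The NF-kappaB motif GGAATTTCC was in the window of 1 rise, Cxcl3, and 0.381% of genes. The PU.1 motif GAGGAA was in 7 rises and 5 falls, with 31.3% over all genes, the C/EBP motif TTGCNNNA in 7 and 5, with 36.6%, and the TATA box TATAAA in 7 and 4, with 15.7%. The SRF CArG box was in 1 rise and 0 falls, with 1.81%. The 30-base windows below are shown because these 6 genes are among the largest rises and share the AP-1 letters or, in Cxcl3, hold the NF-kappaB letters. A match is a description and not a site. Capitals mark the match, and each is read 5' to 3' on the strand of the gene.
Il1a: gcagagaagccTGACTCAgacttaagtctc
C3ar1: agtttaagaggTGACTCAtggaaaggccct
Cd68: gctgaggtgtcTGAGTCAggtttggggtgg
Slc37a2: cccgcagatcaTGAGTCAgcgcggtggtcc
Ppbp: atgcatctgtaTGAATCAgagccagagaga
Cxcl3: agctgcggggGGAATTTCCccagcccgggc

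These windows lie at chr2:129309966-129309995 on the minus strand for Il1a, chr6:122856161-122856190 (minus) for C3ar1 and chr11:69666176-69666205 (minus) for Cd68. Those of Slc37a2, Ppbp and Cxcl3 lie at chr9:37255827-37255856 (minus), chr5:90768303-90768332 (plus) and chr5:90786019-90786048 (plus). Counted from the start site, with negative positions before it, the printed match began at position -12 in Il1a, -22 in C3ar1, -24 in Cd68, -107 in Slc37a2, -204 in Ppbp and -72 in Cxcl3.

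Among the macrophage lists, 10 of 26 monocyte and macrophage markers were called higher and none lower, with a median change of 2.54 against 0.10 over all genes. Besides those named above, Itgb2, the beta chain of leukocyte integrins, rose by 3.76 ± 0.86 from 3.97 and 6.33 to 8.68, 9.65 and 8.40 (adjusted p = 0.0135; 0.168 without uninjured replicate 1). Adgre1, which encodes F4/80, rose by 2.96 ± 0.87 (adjusted p = 0.0447) from 3.74 and 7.30 to between 7.89 and 8.89, and lost its call without uninjured replicate 1 (adjusted p = 0.440) or any single 48 h array (0.0615 to 0.0985). Cd14, Itgam, Csf1r and Lyz2 did not pass, at adjusted p of 0.0761, 0.0977, 0.296 and 0.0892. With all 18 arrays 5 of the 26 were called, and the median change was 1.97. Without uninjured replicate 1 there were 4, with a median of 1.08, and without replicate 2 there were 13, with a median of 4.13.

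The genes of repair macrophages and of macrophages resident in tissue followed in part. Of 16 repair macrophage genes 4 were higher and 1 lower, led by Arg1 and Chil3. Cd9, a tetraspanin of many cell types, fell by 1.88 ± 0.52, a call lost when any 1 array of the contrast was left out (adjusted p = 0.055 to 0.178). Of 15 resident macrophage markers 2 were higher and 1 lower. This list depended on the uninjured array used, with 9 higher and none lower without replicate 2 (median 4.40), and none higher and 2 lower without replicate 1 (median 0.18). Pf4, a platelet-type chemokine also made by macrophages, rose by 4.49 ± 0.92 from 6.42 and 10.66 to 12.82, 12.79 and 13.49, and was at 11.82 on uninjured replicate 3. Its adjusted p was 0.00755, and 0.0519 without uninjured replicate 1 and 0.121 with only the groups compared. Ms4a7 rose by 2.82 ± 0.84 (adjusted p = 0.0465), and was lost without uninjured replicate 1 (0.443) or 48 h replicates 1 or 3 (0.108 and 0.129). Gas6, the ligand of TAM receptors, fell by 2.03 ± 0.60 (adjusted p = 0.0459), and was lost without uninjured replicates 1 or 2 (0.145 and 0.210) or 48 h replicates 2 or 3 (0.116 and 0.0692). C1qa and Mrc1 were at 3.78 and 6.09 on uninjured replicate 1 and at 8.69 and 11.01 on replicate 2, where the 48 h ranges were 8.48 to 9.09 and 11.06 to 11.60. Neither passed. When uninjured replicate 3 was fitted too, 3 of the repair list were higher and none of the resident list was called.

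Of 28 lysosomal genes 9 were higher and none lower, with a median of 1.60, although without uninjured replicate 1 only 2 were called higher. Atp6v0d1, a subunit of the V-ATPase that acidifies lysosomes, was at 5.39 and 5.54 uninjured and at 7.50, 7.51 and 7.78 at 48 h. It rose by 2.14 ± 0.22 (adjusted p = 8.41e-05), and the groups did not overlap. Atp6v1a, the catalytic subunit, rose by 1.86 ± 0.25 (adjusted p = 6.15e-04) from 7.43 and 7.32 to between 9.004 and 9.49. In the fit of all 18 arrays 4 of the 28 were called, among them both of these, at 0.00558 and 0.0210.

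Of 10 class II antigen presentation genes 4 were lower and none higher, with a median of -0.95 and a range from -5.04 to 2.86. The summed linear level of the list did not fall. It was 15927 to 18218 at 48 h, 2787 and 13495 on the fitted uninjured arrays and 31913 on uninjured replicate 3. Without uninjured replicate 2 the count was 1 lower and 1 higher. H2-Eb1, a class II beta chain, was at 6.23 and 8.18 uninjured and at 3.05, 3.06 and 3.07 at 48 h. It fell by 4.14 ± 0.60 (adjusted p = 9.55e-04), was at 9.41 on uninjured replicate 3, and kept its call with all 18 arrays (0.0031). H2-Aa, an alpha chain, fell by 5.04 ± 1.00 from 10.79 and 12.47 to 3.87, 8.36 and 7.54 (adjusted p = 0.00649), and was at 13.90 on replicate 3. The adjusted p of H2-Aa was 0.0661 without uninjured replicate 2 and 0.127 with only the groups compared. Both were lower on every 48 h array than on any of the 3 uninjured arrays. With all 18 arrays 2 of the 10 were called lower. None of 10 dendritic cell markers was called by limma, and 1 had an unadjusted p under 0.05.

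Of 24 chemokines 7 were higher and 3 lower, with a median of 1.77. The count was 2 and 2 without uninjured replicate 1, with a median of 1.04. Ccl9, which recruits myeloid cells, was at 5.40 and 9.49 uninjured and at 11.87, 12.39 and 12.02 at 48 h, a rise of 4.65 ± 0.88 (adjusted p = 0.00482). Its adjusted p was 0.111 with all 18 arrays, 0.109 with only the groups compared and 0.0699 with the control level in the model. Cxcl12, the stromal chemokine that retains Cxcr4-bearing cells, was at 9.62 and 8.18 uninjured and at 2.64, 3.60 and 2.65 at 48 h. It fell by 5.94 ± 0.74 (adjusted p = 3.39e-04) and also with all 18 arrays (0.00746). Ccl11, the eosinophil chemokine of fibroblasts, fell by 3.01 ± 0.63 (adjusted p = 0.00835; 0.073 without uninjured replicate 2). When uninjured replicate 3 was fitted too, 3 were higher and 1 lower.

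Cytokine and acute-phase genes had calls in both directions. Of 19 IL-1, TNF and NF-kappaB genes 3 were higher and 1 lower. Ptgs2, the inducible cyclooxygenase, rose by 3.26 ± 0.76 from 5.68 and 8.04 to 9.59, 10.81 and 9.94 (adjusted p = 0.0153; 0.190 without uninjured replicate 1 and 0.0514 without 48 h replicate 2). Of 19 acute-phase, metallothionein and IL-6 family genes 4 were higher and 5 lower. The oncostatin M receptor Osmr fell by 5.37 ± 0.84, from 9.99 and 8.64 to 4.37, 3.32 and 4.13, whereas Il6ra, the IL-6 receptor alpha chain, rose by 2.38 ± 0.48 from 2.34 and 4.02 to 5.14, 5.38 and 6.18. Il6ra was at 6.02 on uninjured replicate 3, within its 48 h range, and its adjusted p without uninjured replicate 1 was 0.102. Cebpd, a transcription factor of the acute-phase response, fell by 2.66 ± 0.36 (adjusted p = 6.65e-04) and kept its call with all 18 arrays (0.00285). Of 15 complement genes 2 were higher and 3 lower. The receptors C3ar1 and C5ar1 rose, C5ar1 by 2.43 ± 0.41 from 3.08 and 3.40 to 5.95, 5.08 and 5.98. The components C1s1 and C2 fell, by 3.62 ± 0.52 and 2.81 ± 0.47. Without uninjured replicate 1 none of the IL-1, TNF and NF-kappaB genes was called, and 1 acute-phase gene was higher and 3 were lower. The fit of all 18 arrays called 2 IL-1, TNF and NF-kappaB genes and 2 complement genes higher and none of either lower, and 1 acute-phase gene higher and 2 lower.

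Of 16 neutrophil markers none was called higher by limma, or had a higher level at an unadjusted p under 0.05, and 2 were lower. S100a8 and S100a9, the abundant calprotectin subunits, were at 8.46 and 8.96 and at 7.13 and 7.68 uninjured. At 48 h S100a8 was between 8.68 and 10.30 and S100a9 between 6.53 and 7.81, with adjusted p of 0.822 and 0.941. Ngp, a neutrophil granule protein, fell by 3.22 ± 0.72 from 7.12 and 7.65 to 4.17 on each 48 h array (adjusted p = 0.0124; 0.0553 and 0.0844 without uninjured replicates 1 and 2). Ltf, lactotransferrin of neutrophil granules, fell by 2.06 ± 0.57, with an adjusted p of 0.0338 that was 0.0645 or more when any 1 array of the contrast was left out. The summed level of the list was 2846 to 5655 at 48 h and 858 and 1559 uninjured.

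The 15 largest falls included genes of vessels, pericytes and connective tissue. Fmod, fibromodulin of tendon and other collagen-rich tissue, was at 11.14 and 13.57 uninjured and at 3.19, 3.36 and 3.51 at 48 h. It fell by 9.003 ± 0.57 (adjusted p = 2.89e-06). It was at 11.03 on uninjured replicate 3 and fell with all 18 arrays as well (1.27e-05). Ogn, osteoglycin of the same proteoglycan family, was at 9.80 and 10.92 uninjured and at 2.49 to 2.51 at 48 h, a fall by 7.86 ± 1.13 (adjusted p = 9.19e-04). Col1a2 and Col3a1, fibrillar collagen chains, fell by 7.84 ± 1.34 and 7.11 ± 1.92. Itih5, a heavy chain that binds hyaluronan, fell by 7.38 ± 1.03. Apart from Fmod, these genes were between 9.80 and 11.31 on the fitted uninjured arrays and between 2.52 and 4.33 on uninjured replicate 3.

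Aqp1, the water channel of microvessels, was at 12.04 and 10.49 uninjured and at 5.09, 3.13 and 2.96 at 48 h, a fall by 7.54 ± 1.52 (adjusted p = 0.00698; 0.0731 without uninjured replicate 1). Cavin2, a coat protein of caveolae, fell by 8.13 ± 1.58 (adjusted p = 0.00586; 0.0669 without that array). The apelin receptor Aplnr fell by 7.27 ± 1.06, and the sphingosine-1-phosphate receptor S1pr3 fell by 7.004 ± 1.07. Kitl, the stem cell factor, fell by 7.15 ± 1.64 and was at 5.82, 2.74 and 2.62 at 48 h. Ccn1, a matricellular protein, fell by 6.62 ± 0.80 from 10.14 and 9.43 to 3.90, 2.26 and 3.33. Tspan13, Armcx2, Cyyr1 and Nrep completed the 15, with falls by 6.71, 7.30, 7.10 and 6.91. In the fit of all 18 arrays only Fmod of the 15 kept its call, at adjusted p of 0.138 to 0.332 for the others. Without uninjured replicate 1, 9 of the 15 were called, with adjusted p of 0.115 for Kitl, 0.139 for Col3a1, 0.102 for Cyyr1 and 0.135 for Nrep. Col3a1 was also lost without uninjured replicate 2 (0.131) or 48 h replicates 2 or 3 (0.0739 and 0.0758), and Nrep without uninjured replicate 2 (0.0501).

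By list, 15 of 23 endothelial markers were lower and none higher, with a median of -3.52, and 5 were lower without uninjured replicate 1. Tek, the angiopoietin receptor, was at 9.08 and 7.65 uninjured and at 3.81, 3.85 and 2.32 at 48 h (fall by 5.04 ± 0.71, adjusted p = 8.28e-04). Kdr, the main VEGF receptor of endothelium, fell by 3.52 ± 0.51 from 7.93 and 5.69 to between 2.70 and 3.69. Vwf, von Willebrand factor, fell by 4.71 ± 1.18 and was at 4.18, 7.83 and 4.06 at 48 h (adjusted p = 0.0220). Its adjusted p was 0.189 without uninjured replicate 1 and 0.0617 and 0.0688 without 48 h replicates 1 and 3. With only the groups compared it was 0.125. Cdh5 did not pass (0.0811), and Pecam1 and Tie1 were between 2.51 and 3.71 on the 5 arrays. Of 15 pericyte and smooth muscle markers 9 were lower and none higher, with a median of -3.60, and 3 were lower without uninjured replicate 1. Pdgfrb, the pericyte receptor, fell by 5.05 ± 0.74 and Abcc9, a channel subunit of pericytes, by 5.37 ± 0.61. Rgs5 was at 13.99 and 12.25 uninjured and still at 7.84, 9.83 and 7.69 at 48 h (fall by 4.67 ± 1.23, adjusted p = 0.0277, and 0.0528 to 0.211 when an array of the contrast other than 48 h replicate 2 was left out). On uninjured replicate 3 these lists averaged 3.85 and 3.25, and with all 18 arrays no member of either was called.

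The fibroblast and fibro-adipogenic list had 9 of 21 lower and none higher, and the tenocyte list 5 of 8, with medians of -2.16 and -2.83. Without uninjured replicate 2 each had 3 lower, with medians of -1.40 and -1.32, and without replicate 1 the fibroblast list stood at 6. Lum, lumican, was at 7.11 and 8.29 uninjured and at 2.51 to 2.58 at 48 h (fall by 5.16 ± 0.73). Dcn, decorin, fell by 6.29 ± 1.31 (adjusted p = 0.00846; 0.0544 and 0.0513 without uninjured replicates 1 and 2). Pdgfra, the receptor that marks fibro-adipogenic progenitors, was at 5.41 and 6.14 uninjured and at 5.93, 4.77 and 3.69 at 48 h and did not pass (0.489). Fabp4, of adipocytes, capillaries and macrophages, stayed abundant at 9.25 to 11.41 and fell by 2.97 ± 0.82 (adjusted p = 0.0346), and was lost without uninjured replicates 1 or 2 (0.254 and 0.0543) or 48 h replicate 3 (0.100). With all 18 arrays none of the fibroblast list and 1 tenocyte gene, Fmod, was called. Among the Schwann cell markers 2 of 9 were lower, and the dim Sox10 fell by 0.62 ± 0.11. Of 8 mast cell markers 1 was higher, and Cpa3 and Cma1 were above background only on uninjured replicate 2, at 5.87 and 4.75.

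Genes of the extracellular matrix had more falls than rises, as did all genes (9.39% lower and 5.47% higher). Of 12 small leucine-rich proteoglycans 9 were lower (median -3.72), of 21 collagens 12 (median -2.93) and of 16 laminins and basement membrane proteins 8 (median -2.35), and none of these was higher. Ecm2 fell by 4.16 ± 0.43 from 7.76 and 5.76 to 2.56 to 2.62. Col6a3, a microfibrillar collagen chain, was at 8.24 and 8.43 uninjured and at 2.74, 2.76 and 2.21 at 48 h (fall by 5.77 ± 0.62, adjusted p = 1.32e-04). Col4a5 of basement membranes fell by 2.93 ± 0.20, and Nid1, which links laminin to collagen IV, by 4.71 ± 0.73, although the probe sets of Nid1 disagreed. Among 17 provisional matrix genes 1 was higher and 3 lower. Sparc fell by 5.26 ± 0.86 from 11.27 and 10.86 to 7.99, 5.26 and 4.16. Fn1, fibronectin, rose by 2.33 ± 0.68 from 7.87 and 9.63 to 11.04, 10.90 and 11.30 (adjusted p = 0.0433, and 0.0771 to 0.357 without uninjured replicate 1 or any 48 h array). When uninjured replicate 3 was fitted too, 1 proteoglycan and 1 basement membrane gene were called lower and no collagen. Without uninjured replicates 1 and 2 the collagens called lower were 7 and 6, also 7 without 48 h replicate 2 or 3, and without uninjured replicate 1 the basement membrane genes were 3.

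Of 23 matrix proteases and inhibitors 2 were higher and 4 lower. Adam8, a leukocyte metalloproteinase, rose by 2.70 ± 0.52 from 3.15 and 4.64 to 7.18, 5.51 and 7.13 (adjusted p = 0.00529; 0.0772 without uninjured replicate 1). The inhibitors Timp4 and Timp3 fell by 4.96 ± 1.02 and 3.93 ± 0.99, and their adjusted p without uninjured replicate 1 was 0.104 and 0.169. Timp3 was also lost without uninjured replicate 2 or 48 h replicates 1 or 3 (0.0503 to 0.0586). Among 24 integrins 1 was higher and 2 lower, with Itga1, a collagen receptor chain, down by 4.58 ± 0.76. Among 10 syndecans and glypicans Sdc4 rose, and Sdc2 and Gpc4 fell by 3.36 ± 0.67 and 1.36 ± 0.32 (0.0573 and 0.149 without uninjured replicate 1). No protease, inhibitor, syndecan or glypican was called by limma without uninjured replicate 1, and 3 integrins were lower. In the fit of all 18 arrays 1 protease or inhibitor and 1 of the syndecans and glypicans were higher, and no integrin was called.

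**Figure D4:**
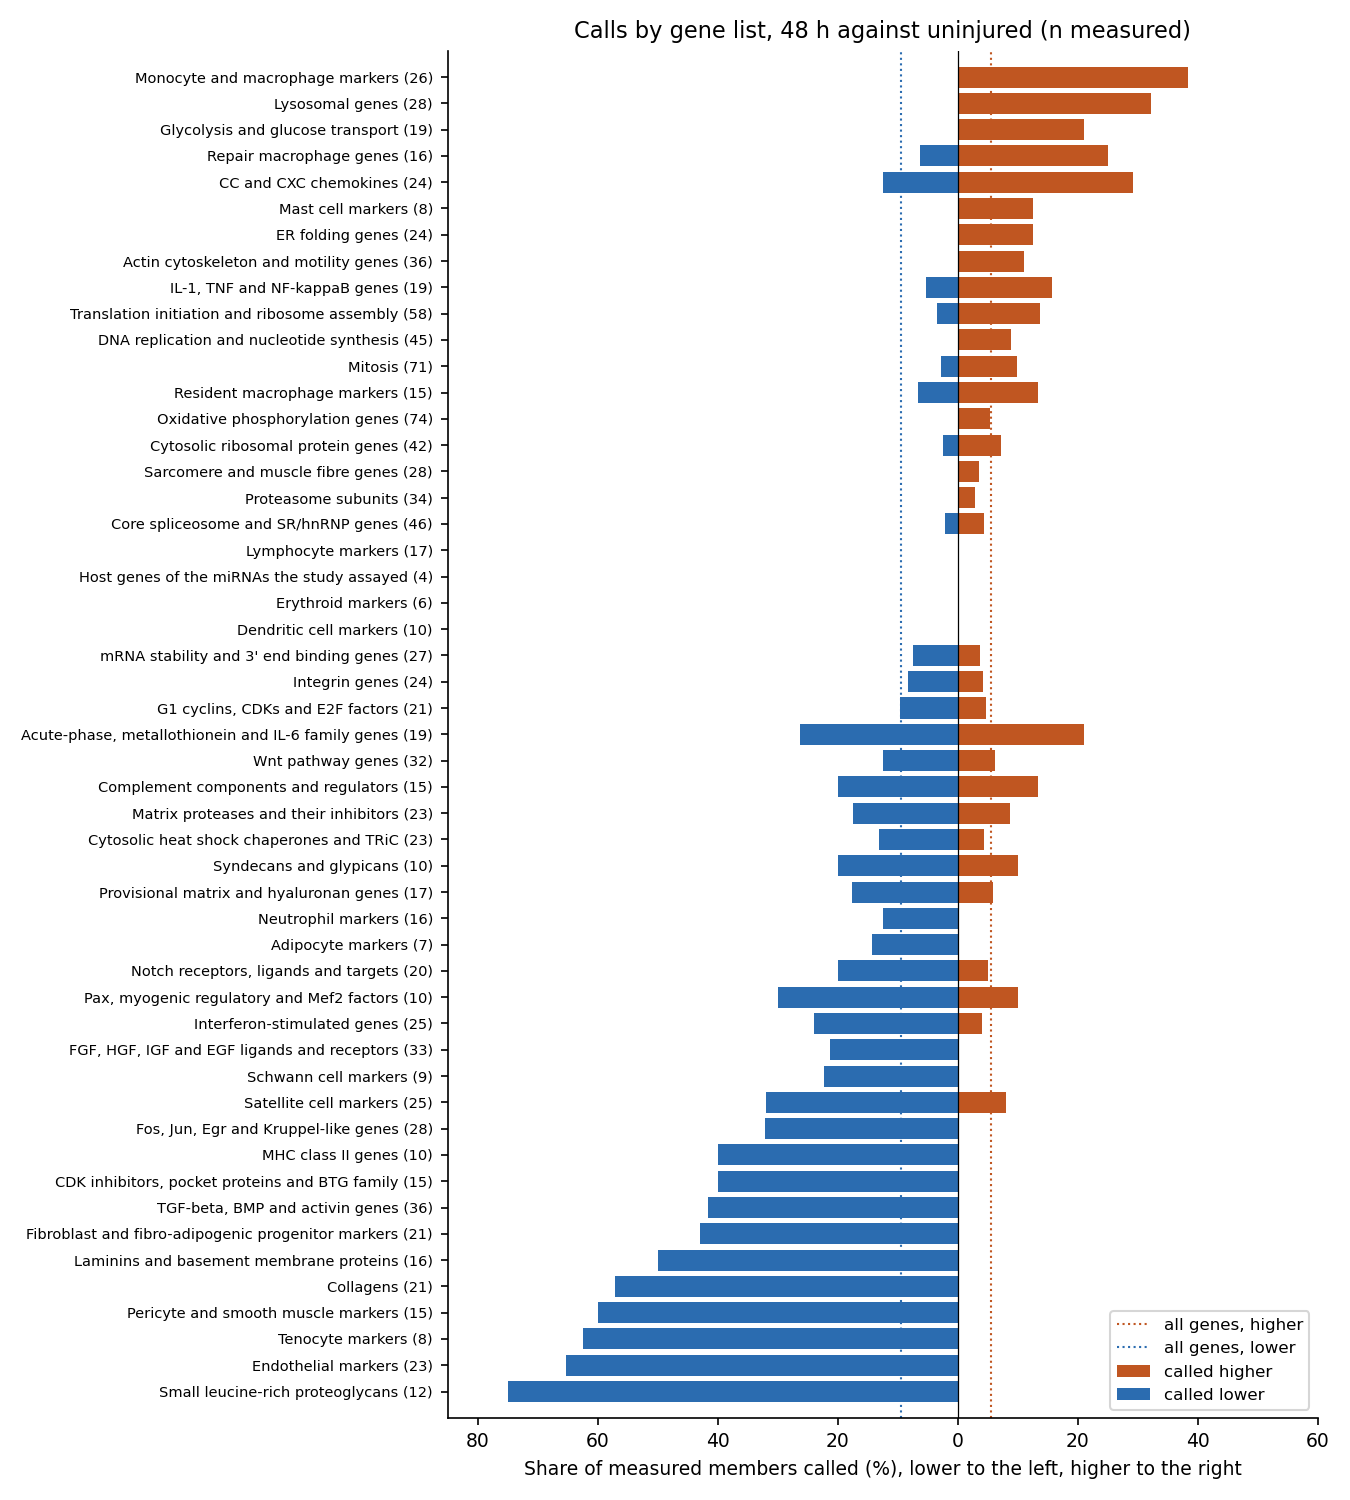
Bars give the share of measured members of each of 51 gene lists that limma called lower (blue, left) or higher (orange, right) at 48 h, with the number measured in parentheses, and dotted lines give the shares over all genes, 9.39% and 5.47%. The monocyte and macrophage list had the highest share of rises, 38.5%, and the small leucine-rich proteoglycans the highest share of falls, 75%.

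Growth factor pathways had more falls than rises, as did all genes (9.39% lower and 5.47% higher). The share lower was 41.7% for TGF-beta, BMP and activin genes and 21.2% for FGF, HGF, IGF and EGF genes. It was 20% for Notch genes and 12.5% for Wnt genes, the last near the share over all genes. Of 36 TGF-beta, BMP and activin genes 15 were lower and none higher, with a median of -1.91. Tgfbr3, the betaglycan co-receptor, was at 6.88 and 6.04 uninjured and at 2.61, 2.73 and 2.62 at 48 h. It fell by 3.81 ± 0.25 (adjusted p = 3.4e-06). Smad5, which carries BMP signals to the nucleus, fell by 2.28 ± 0.26 from 6.68 and 5.54 to between 3.80 and 3.86. Of 33 FGF, HGF, IGF and EGF genes 7 were lower and none higher, among them Igf2, a growth factor, by 4.01 ± 0.49 and Fgfr3 by 3.10 ± 0.44. Of 20 Notch genes 4 were lower and 1 higher, with Notch3 down by 4.23 ± 0.60 from 8.59 and 7.14 to 4.02, 3.52 and 3.37. Dtx3 fell by 1.67 ± 0.20. Of 32 Wnt genes 4 were lower and 2 higher, and the receptors Fzd6 and Fzd5 fell by 3.01 ± 0.24 and 2.27 ± 0.45 (Fzd5 0.0872 without uninjured replicate 1). Uninjured replicate 3 was at 2.78 for Tgfbr3, 3.26 for Igf2 and 3.52 for Notch3, near the 48 h values. In the fit of all 18 arrays 1 of the TGF-beta and BMP genes was called lower and none of the other 3 lists.

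Cell cycle genes had few calls in either direction. Of 45 DNA replication genes 4 were higher and none lower, and of 71 mitosis genes 7 were higher and 2 lower, with medians of 0.42 and 0.35. Mcm5, a subunit of the replicative helicase, was at 4.54 and 4.19 uninjured, 5.96 on uninjured replicate 3 and 8.46, 7.51 and 8.39 at 48 h. It rose by 3.76 ± 0.55 (adjusted p = 0.00104) and with all 18 arrays (0.0141). Mki67, the proliferation antigen, rose by 3.43 ± 0.73 from 5.21 and 5.85 to 8.82, 9.40 and 8.65 (adjusted p = 0.00941; 0.0865 without uninjured replicate 1) and was at 7.68 on uninjured replicate 3. Incenp, of the chromosomal passenger complex, rose by 2.16 ± 0.58 (adjusted p = 0.0308), a call lost when any 1 array but 48 h replicate 1 was left out (0.0561 to 0.216). Gmnn, the inhibitor of relicensing, rose by 1.33 ± 0.39 (0.0414) and was lost when any 1 array but 48 h replicate 2 was left out (0.101 to 0.176). Smc2, a condensin subunit, fell by 1.40 ± 0.40 (0.0403) and was lost without uninjured replicate 1 (0.326) or 48 h replicates 2 or 3 (0.117 and 0.061). Without uninjured replicates 1 and 2 there were 1 and 1 replication genes and 0 and 1 mitosis genes higher, and with all 18 arrays there were 1 and 2. Without 48 h replicate 1 the replication rises were 2, and without 48 h replicate 2 they were 7 and the mitosis rises 3. Of the mitosis list 44 members had both means under 4. Mcm7, another helicase subunit, was at 7.56, 2.82 and 6.40 on the 48 h arrays and at 5.82 and 5.98 uninjured.

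Of 15 CDK inhibitors, pocket proteins and BTG family members 6 were lower and none higher, with a median of -0.89, and 2 and 3 were lower without uninjured replicates 1 and 2 and 3 without 48 h replicate 3. Tob1, an antiproliferative BTG family protein, was at 7.70 and 7.12 uninjured and at 5.32, 4.10 and 4.42 at 48 h (fall by 2.80 ± 0.65, adjusted p = 0.0151; 0.123 without uninjured replicate 1). Gas1, a growth arrest protein, fell by 3.29 ± 0.62 (adjusted p = 0.00478; 0.057 without uninjured replicate 2). Among 21 G1 cyclins, CDKs and E2F factors 1 was higher and 2 lower, and Ccnd2, cyclin D2, fell by 2.47 ± 0.47 from 8.15 and 7.80 to 6.06, 5.45 and 5.02, with an adjusted p of 0.00517 and of 0.0541 without uninjured replicate 1. Ccnd2 was at 7.32 on uninjured replicate 3 and was called with all 18 arrays (0.0240), whereas none of the inhibitor list was.

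Of 10 Pax, myogenic regulatory and Mef2 factors 1 was higher and 3 lower. Besides Pax7 and Myf5, Mef2c, a MADS-box factor of muscle and also of endothelium and myeloid cells, was at 7.93 and 7.14 uninjured and at 3.91, 3.08 and 3.35 at 48 h. It fell by 4.09 ± 0.54 (adjusted p = 5.33e-04) and with all 18 arrays (0.00907). Of 28 sarcomere and muscle fibre genes 1 was higher and none lower, with a median of 0.05.

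Immediate early genes and Kruppel-like factors were lower in 9 of 28 cases and higher in none, with a median of -1.52 (4 and 6 lower without uninjured replicates 1 and 2). Klf13 fell by 2.21 ± 0.36 from 7.24 and 6.49 to 4.44, 5.41 and 4.10, and was at 4.95 on uninjured replicate 3. Of 25 interferon-stimulated genes 6 were lower and 1 higher, with a median of -1.23, and 1 was lower without uninjured replicate 1. Gbp3, a guanylate-binding protein, fell by 3.84 ± 0.68 and Ifit2 by 2.67 ± 0.53 (0.0677 without uninjured replicate 1), while Oas1a rose by 2.40 ± 0.71, a call lost when any 1 array of the contrast was left out (0.0519 to 0.334). With all 18 arrays 1 immediate early gene was called lower and no interferon-stimulated gene.

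Of 19 glycolysis genes 4 were higher and none lower, with a median of 1.40. None was called by limma without uninjured replicate 1 or without replicate 2, 1 was without 48 h replicate 2, and 1 was with all 18 arrays. Ldha, lactate dehydrogenase A, was at 7.45 and 7.14 uninjured, 7.03 on uninjured replicate 3 and 9.55, 9.15 and 9.01 at 48 h. It rose by 1.94 ± 0.46 (adjusted p = 0.0162; 0.0681 and 0.103 without uninjured replicates 1 and 2) and with all 18 arrays (0.0290). Pdk1, which restrains pyruvate oxidation, rose by 2.71 ± 0.70 (adjusted p = 0.0246; 0.0637 and 0.171 without those arrays and 0.0781 without 48 h replicate 2). Of 74 oxidative phosphorylation genes 4 were higher, 5.41% against 5.47% over all genes, with a median of 0.64. Ndufb6, of complex I, rose by 1.81 ± 0.26 from 10.30 and 9.55 to 11.47, 11.84 and 11.90.

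Cytosolic ribosomal protein genes had 3 of 42 higher and 1 lower, a median of 0.62, and list means of 9.57 and 9.99 uninjured and 10.48 to 10.52 at 48 h. Rps2 rose by 0.98 ± 0.26 from 10.28 and 10.02 to 11.15, 11.22 and 11.04 (adjusted p = 0.0278; 0.0841 and 0.167 without uninjured replicates 1 and 2, and 0.0565 and 0.0734 without 48 h replicates 1 and 2). No ribosomal protein gene was called higher without uninjured replicate 1 or 2 or 48 h replicate 2, and 1 was with all 18 arrays. Of 58 translation initiation and ribosome assembly genes 8 were higher and 2 lower, and 1 and 2 were higher without uninjured replicates 1 and 2 and 1 with all 18 arrays. Eif6, which keeps ribosomal subunits apart, rose by 1.05 ± 0.28 (adjusted p 0.160 and 0.0903 without uninjured replicates 1 and 2), and Eif4a2, a helicase, fell by 2.42 ± 0.55 (0.139 without uninjured replicate 1). Of 24 endoplasmic reticulum folding genes 3 were higher. Creld2 rose by 3.02 ± 0.52 from 7.26 and 7.32 to 10.47, 11.10 and 9.36. Dnajb11, a co-chaperone of BiP, rose by 1.99 ± 0.38 (with the control level in the model, a change of 0.24 at an adjusted p of 0.934). With all 18 arrays 2 of the list were higher. Of 34 proteasome subunits 1 was called, Psmd8, up by 2.62 ± 0.32 (adjusted p = 2.82e-04) from 5.27 and 4.92 to 7.66, 7.41 and 8.06. The proteasome median was 1.00 and 20 of the 34 had every 48 h array above both uninjured arrays, against 44.2% of all genes. Psmd8 kept its call with all 18 arrays (0.00131).

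Of 23 cytosolic chaperones 1 was higher and 3 lower. Hspb1, a small heat shock protein, was at 11.74 and 10.67 uninjured, 9.98 on uninjured replicate 3 and 6.09, 6.25 and 6.04 at 48 h. It fell by 5.08 ± 0.77 (adjusted p = 0.00127) and with all 18 arrays (0.00631). Of 36 actin cytoskeleton genes 4 were higher and none lower (2 without uninjured replicate 1 and 2 with all 18 arrays), including Capg, a filament-capping protein abundant in macrophages, which rose by 2.91 ± 0.47 from 3.74 and 4.47 to 7.38, 6.26 and 7.40 (adjusted p = 0.00198; 0.00375 with all 18 arrays).

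Genes that act on RNA had few calls. Of 46 core spliceosome, SR protein and hnRNP genes 2 were higher and 1 lower. Snrpa1, a U2 snRNP protein, rose by 2.60 ± 0.35 from 8.55 and 7.89 to 10.67, 11.28 and 10.50, and was called with all 18 arrays (0.0094). Of 27 mRNA stability genes 1 was higher and 2 lower. Zfp36, tristetraprolin, which destabilizes AU-rich mRNAs, was at 9.32 and 9.03 uninjured and at 7.69, 7.31 and 7.64 at 48 h. It fell by 1.62 ± 0.21 (adjusted p = 5.03e-04), but uninjured replicate 3 was at 7.56, within the 48 h values, and the adjusted p with all 18 arrays was 0.180. Cnot6l, a deadenylase, fell by 3.56 ± 0.66 (0.00425, and 0.0551 without uninjured replicate 1). None of the 4 host genes of the miRNAs that the study assayed was called by limma, and 1 had an unadjusted p under 0.05.

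The same contrast in Sdc4-/- cells, with 3 arrays at each time and no array shared with the wild type contrast, called 482 genes higher (2.65%) and 471 lower (2.59%). Of the 15 largest wild type rises 6 were called higher in Sdc4-/- cells and none lower. These genes and the falls were chosen for their wild type changes, so smaller changes in Sdc4-/- cells are not read as a difference. Fcgr1 rose by 3.72 in Sdc4-/- cells (adjusted p = 0.00324), Msr1 by 4.09 (0.00252) and Arg1 by 5.11 (0.0287). Of the 15 largest falls 4 were called lower. Fmod fell by 9.05 (1.75e-06), Ogn by 5.15 (0.0111), Itih5 by 4.42 (0.0158) and Tspan13 by 2.85 (0.0144). Among the class II genes 6 of 10 were lower in Sdc4-/- cells, H2-Eb1 by 4.98 (2.13e-04), and among lysosomal genes 10 of 28 were higher.

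The difference between the genotypes in the 48 h change was fitted as a separate limma contrast, wild type minus Sdc4-/-, which called 850 of 18194 genes (4.67%), 187 above and 663 below 0. The strains of the genotypes differ, so syndecan-4 and strain cannot be told apart. None of the 15 largest rises and 5 of the 15 largest falls were called, and these genes were chosen on wild type arrays that this contrast shares. With uninjured replicate 3 fitted too, this contrast called 201 probe sets in place of 1842. In that fit the wild type change itself was no longer called by limma for these 5 falls. The same held for Zfp36 (adjusted p = 0.180), Fzd5 (0.182) and Il6ra (0.344), described below. Armcx2 had a Sdc4-/- change of -0.50 (adjusted p = 1.00) and a difference of -6.80 ± 1.71 (adjusted p = 0.0465). The differences of Aplnr, S1pr3, Ccn1 and Tspan13 were -6.22, -6.06, -5.62 and -3.86. Zfp36 fell by 1.62 in wild type and rose by 1.44 in Sdc4-/- cells (adjusted p = 9.46e-04), a difference of -3.06 ± 0.29 (adjusted p = 1.28e-04). Fzd5 also moved in opposite directions, with a rise of 1.73 in Sdc4-/- cells (0.0297) and a difference of -3.998 ± 0.61 (0.00355). Il6ra rose in wild type and fell by 1.71 in Sdc4-/- cells (0.0449), a difference of 4.09 ± 0.65 (0.00453).

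For several satellite cell genes the difference came with levels at or near background in Sdc4-/- cells at both times. Pax7 averaged 2.47 in uninjured and 2.40 in 48 h Sdc4-/- cells and differed by -2.35 ± 0.20 (adjusted p = 8.05e-05). Myf5 averaged 2.82 and 2.74 there (difference -1.31 ± 0.26), and Cd34 2.82 and 3.26 (difference -3.94 ± 0.62). By list, 7 of 36 TGF-beta, BMP and activin genes differed, all lower in the wild type change, among them Smad5 by -2.04. No member of the monocyte and macrophage, endothelial, pericyte or lysosomal lists was called by limma for this difference. The median differences of these lists were 2.37, -2.15, -2.01 and 0.01. The macrophage list had a median change of 2.54 in wild type and 0.70 in Sdc4-/- cells. Its list means were 5.11 and 7.37 on the fitted uninjured wild type arrays and 8.83 to 9.28 at 48 h. On uninjured Sdc4-/- arrays they were already 8.31 to 8.96.

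**Figure D5:**
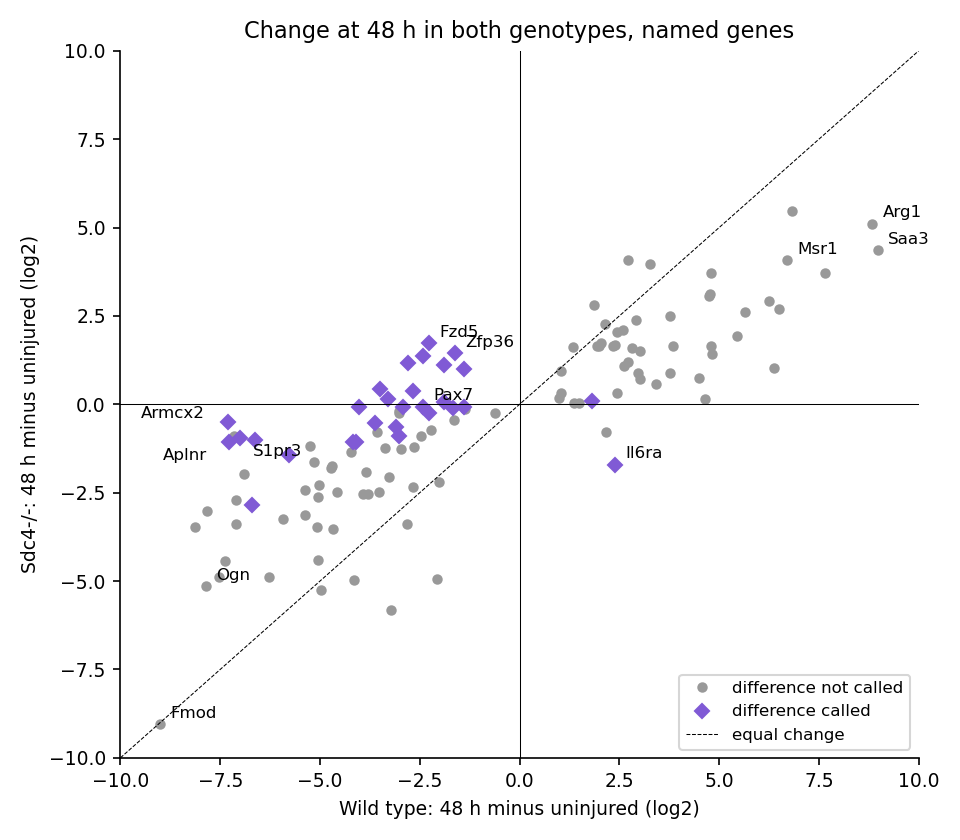
Change at 48 h in log2 in wild type (horizontal) and Sdc4-/- cells (vertical) for the named genes called in wild type, with purple diamonds for the 29 genes whose genotype difference was called, grey circles for the rest and a dashed line of equal change. Fmod lay on the line, at -9.003 and -9.05, while Zfp36 and Fzd5 fell in wild type and rose in Sdc4-/- cells.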

How the data were processed

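Expression was measured on Affymetrix MOE430 2.0 arrays. The authors deposited log2 values of 45101 probe sets after GCRMA, with GCOS also named in the submitters' processing notes and no version of either. GCRMA subtracts background by a probe-sequence model and quantile normalizes, so differences in total RNA cannot be read from the values. Values near 2 to 3 have no reliable order. The deposited arrays still differed in distribution, with medians over all probe sets of 2.80 and 2.81 on the fitted uninjured arrays and 2.89 to 2.92 at 48 h. The values were used as deposited. No detection calls or scanner intensities were used here. Other columns of samples numbered 0.

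The 6 groups came from the labels. A limma fit of 17 arrays, without wild type uninjured replicate 3 (taken to be the array the study removed, whose number it does not give), had 11 residual degrees of freedom and a prior of 1.2. The contrast was 48 h minus uninjured, with Benjamini-Hochberg adjustment over all probe sets and a threshold of 0.05. The fit was tested on simulated data. The number of arrays, 2 against 3, limits the precision. Of the probe sets 34958 had 1 gene symbol, 932 several and 9211 none, and each gene was read by its probe set of highest mean. Named were the 15 largest rises and falls among called genes with groups that did not overlap and a higher group mean of at least 6. From each list up to 2 called members in each direction, with the smallest adjusted p and a higher group mean of at least 5, were added, or the 2 members of highest mean where none was called. With the cell type markers these made 172 genes in all, of which 124 were called. Of these 38 were called with all 18 arrays, 69 without uninjured replicate 1 and 97 without replicate 2, while 92 lost their call once each array's hybridization-control level entered the model and 44 in a fit of the compared groups alone. The members and the 51 gene lists (1165 unique genes, 65 listed entries unmatched) were chosen with earlier results of these data known. R 4.3.3, limma 3.58.1, Python 3.11.15, pandas 2.3.3 and matplotlib 3.10.9 were used.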

Additional observations from a re-analysis of the deposited data

Results flagged for a closer look

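The change at 48 h differed between wild type and Sdc4-/- cells for 29 of the 124 named genes called in wild type, by a limma contrast of the difference itself, given here in log2 as wild type minus Sdc4-/-. Over all genes 4.67% were called, but the 124 were chosen by a wild type call on arrays that this contrast shares, so their share is a description. It was above 0 for 2 of them, Il6ra (4.09) and Ndufb6 (1.71). For Armcx2 it was -6.80. Among cell surface, matrix and vessel genes it was -6.22 for Aplnr, -6.06 for S1pr3, -5.62 for Ccn1, -3.86 for Tspan13, -3.94 for Cd34, -1.97 for Chodl, -2.996 for Cd9, -4.34 for Col6a3, -3.11 for Ecm2 and -2.85 for Col4a5. Among growth factor pathway, complement and interferon-stimulated genes it was -3.998 for Fzd5, -2.13 for Fzd6, -3.92 for Igf2, -2.46 for Fgfr3, -2.04 for Smad5, -1.56 for Dtx3, -3.09 for C1s1 and -3.06 for Ifit2. Among transcription, RNA and cell cycle genes it was -3.95 for Tob1, -3.79 for Eif4a2, -3.43 for Gas1, -3.06 for Zfp36, -3.04 for Mef2c, -2.40 for Smc2, -2.35 for Pax7 and -1.31 for Myf5. Strain differed with genotype, so the 2 cannot be told apart. The list also rests on the 2 fitted uninjured wild type arrays. In the limma fit of all 18 arrays, every gene of the 29 except Mef2c and Ndufb6 lost its wild type call. The adjusted p of the wild type change was then 0.170 for Armcx2, 0.189 for Aplnr and 0.585 for Tob1. Groups of 3 arrays are too small for the test of outlying values used here. By correlation and number of probe sets above 5, given above, uninjured replicate 3 stood apart from its group.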

How the results depend on the processing

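The count of 5624 probe sets called and the 3900 at the threshold of the study rested on which uninjured arrays were fitted. With all 18 arrays they were 419 and 1828, and the genotype difference fell from 1842 to 201 probe sets. Adding each array's hybridization-control level to the model, which was chosen after seeing the data, gave 844, 2194 and 243. A filter that kept the 9962 probe sets whose mean reached 4 gave 2129, 2086 and 680. A further quantile normalization gave 3433 called and 1105 for the genotype difference. A shift by the 75th percentile gave 20138 called and moved the median of all probe sets from 0.11 to 0.43. The genotype difference was 2876 by analysis of variance without moderation and 2817 with array weights. Leaving out 1 array of the contrast gave 2648 to 5253 called, 2497 to 3876 at the threshold of the study and 1125 to 2096 for the genotype difference, lowest in each case without uninjured replicate 1. The share of calls that were higher, 42.9%, was 31.9% after quantile normalization, 59.9% with all 18 arrays, 12.4% with the control level in the model, 58.5% without moderation, 27.5% with the filter, 85.3% after the percentile shift, and 27.6% and 23.5% without uninjured replicates 1 and 2. Under the other alternatives these 3 totals stayed within 1.5 times. The cause was not tested.

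With a replicate block 4667 probe sets were called, 3759 at the threshold of the study and 1366 for the genotype difference. Same-numbered arrays of the groups correlated in their deviations at r = 0.057 and 0.021, over 2 pairs. The deviations of 2 uninjured arrays mirror each other, so these values cannot show whether same-numbered samples share more than a number. Averaged over every probe set of the gene, Eif1ax turned to -0.44 (adjusted p = 0.206) and Srsf10 to -0.16 (adjusted p = 0.816). No detection call was at hand, and order among values near background is not reliable.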
